A study of Mus musculus with 3 samples.

Results

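The enzymes that make serine and pass its carbon to folate were followed in mouse embryonic stem cells over passages. The 10 genes were the rows of the deposited expression table whose Ensembl IDs map to Phgdh, Psat1, Psph, Shmt1, Shmt2, Mthfd1, Mthfd1l, Mthfd2, Aldh1l2 and Gldc, 10 of 50043 rows. All were found by name. RNA was sequenced from the KH2 line carrying an inducible knockout of Pold3, whose product is a small subunit of the replicative DNA polymerase delta, with 1 library each at P0, P1 and P2. All 3 groups share this line and its inducible genotype, but Pold3 RNA was 3.78-fold lower at P1 and 4.23-fold lower at P2 than at P0. Passage and loss of Pold3 therefore cannot be told apart in the differences against P0. The labels name neither the agent that induces the knockout, nor when it was given relative to P0, nor the clone or the number of cultures. Since there is 1 library per passage, differences could not be checked against replicates and carry no p-value. Levels are in FPKM, fragments scaled by gene length and library size. A gene is said to have risen or fallen where log2(FPKM + 1) differed by at least 1 between libraries and FPKM was at least 1 in 1 or both. Other differences are given as values. Ratios of FPKM carry exact 95% intervals on the recovered reads, which cover counting error only and compare libraries, not conditions.

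Serine is made from the glycolytic intermediate 3-phosphoglycerate, and its side-chain carbon is carried by tetrahydrofolate to purines, thymidylate and methionine. The folate reactions run in parallel in the mitochondrion and the cytosol. The mitochondrial branch usually oxidises the carbon and exports it as formate, and the cytosolic branch takes formate up into synthesis. Mouse embryonic stem cells are known for a further source, threonine, which they break down to glycine, and the glycine cleavage system then yields another carbon for folate.

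The serine synthesis genes and the mitochondrial genes of the path from serine to formate were lower at both later passages than at P0, whereas the cytosolic folate genes and the mitochondrial glycine cleavage gene Gldc were higher, except Shmt1 at P2 under median-of-ratios scaling. Mthfd2 fell by P2, to 0.412 of its P0 level (interval 0.382 to 0.445), and no other member passed 2-fold. Psat1 and Mthfd1l came close, at 0.520 (interval 0.504 to 0.536) and 0.523 (interval 0.493 to 0.554). At the other end Mthfd1 measured 1.22 times its P0 level (interval 1.19 to 1.25). Aldh1l2 was under FPKM 1 in all 3 libraries and 9 of the 10 genes were compared. Of those, 1 fell by P2 and 0 rose, and among all 13472 IDs compared 1.16% fell and 6.72% rose, 7.88% in all. At P1, 0 of 9 passed 2-fold, and among 13288 IDs 0.549% fell and 4.12% rose, 4.67% in all. Between P1 and P2, 0 of 9 passed 2-fold, and among 13585 IDs 0.883% fell and 0.78% rose, 1.66% in all. The median difference over all compared IDs was 0.06 at P1 and 0.07 at P2 on the log2(FPKM + 1) scale. The higher values of Shmt1, Gldc and Mthfd1 at P2 lay within the bulk of all IDs. Among IDs with FPKM of at least 5 at P0 or P2, 60.9% had a lower difference than Shmt1, 63.5% than Gldc and 75.3% than Mthfd1.

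**Figure D1:**
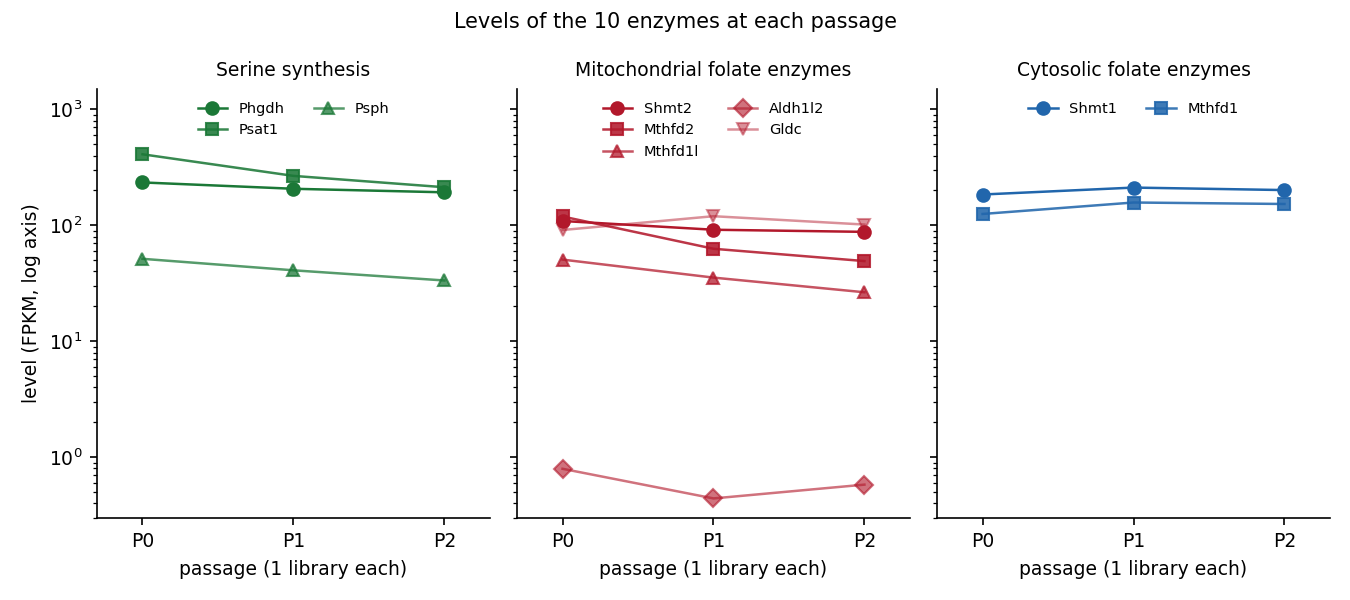
Level of each enzyme in FPKM (log axis) at passages P0, P1 and P2, 1 library each, in panels for serine synthesis, mitochondrial and cytosolic folate enzymes. The 3 serine synthesis genes step down at each passage, Mthfd2 goes from 119 to 49.2 FPKM, and Shmt1 and Mthfd1 stay above their P0 level as deposited (Shmt1 at P2 does not under median-of-ratios scaling); Aldh1l2 lies under 1 FPKM throughout.

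The upstream sequences of the 2 members with the lowest ratios at P2 and of the 2 cytosolic members are shown because the first pair was lower and the second higher than P0. They are the 250 bases before the gene start on the gene's strand, from RefSeq on GRCm38.p6, with CCAAT on either strand in capitals.
Mthfd2 (chr6:83317605-83317854, minus strand): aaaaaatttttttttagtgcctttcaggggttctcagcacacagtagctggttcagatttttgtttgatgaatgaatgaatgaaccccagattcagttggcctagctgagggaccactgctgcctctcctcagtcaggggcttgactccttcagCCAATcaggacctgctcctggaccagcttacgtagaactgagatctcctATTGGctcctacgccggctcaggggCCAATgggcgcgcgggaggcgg
Psat1 (chr19:15925060-15925309, minus strand): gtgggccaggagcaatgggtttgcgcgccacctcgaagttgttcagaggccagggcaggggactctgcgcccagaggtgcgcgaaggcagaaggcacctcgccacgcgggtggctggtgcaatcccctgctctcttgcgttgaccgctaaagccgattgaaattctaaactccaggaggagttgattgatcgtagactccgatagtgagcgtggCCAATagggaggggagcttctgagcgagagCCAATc
Shmt1 (chr11:60811266-60811515, minus strand): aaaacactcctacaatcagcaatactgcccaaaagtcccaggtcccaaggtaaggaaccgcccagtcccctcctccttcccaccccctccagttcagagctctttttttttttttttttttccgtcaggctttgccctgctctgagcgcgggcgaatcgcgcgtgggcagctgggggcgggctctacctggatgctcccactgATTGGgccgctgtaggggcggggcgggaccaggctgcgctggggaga
Mthfd1 (chr12:76254982-76255231, plus strand): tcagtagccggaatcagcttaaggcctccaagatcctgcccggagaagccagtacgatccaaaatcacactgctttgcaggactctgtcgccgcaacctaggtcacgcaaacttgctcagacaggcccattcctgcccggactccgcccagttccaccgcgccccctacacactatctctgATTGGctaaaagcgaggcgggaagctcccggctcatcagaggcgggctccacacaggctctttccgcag
CCAAT, read on both strands, occurred 3 times upstream of Mthfd2 and 2 times upstream of Psat1 (for which the more upstream of 2 listed starts is shown), and 1 time upstream of Shmt1 and 1 time upstream of Mthfd1. The counts did not follow the direction of the values over all members, since Mthfd1l and Shmt2, which were also lower than P0, held 0 matches in their windows, as did the window of the other Psat1 start. From 250 bases before to 50 after the start, 7 of the 10 windows of the 9 members in the table held it, and 37.4% of all 32851 windows did. Aldh1l2 is not in the table.

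The core of the composite element bound by ATF4 with C/EBP factors, TGATGNAA on either strand, was in 0 of the 10 windows of these 9 members and in 3.97% of all windows. Among 10 other genes commonly listed as ATF4 targets with a window, 6 held it. The asparagine synthetase gene Asns and the glutathione-degrading enzyme gene Chac1 are shown with the match in capitals, which in Chac1 is on the opposite strand.
Asns (chr6:7693214-7693243, minus strand): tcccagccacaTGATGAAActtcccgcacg
Chac1 (chr2:119351038-119351067, plus strand): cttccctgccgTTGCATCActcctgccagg
Also read in the same way were TGACNNNGC, the core of the antioxidant response element, and CACGTG, the E-box. The former was in the windows of Phgdh and Psph, 2 of the 10 member windows, and in 12.4% of all windows. The latter was in 0 of the 10 member windows and in 7.15% of all windows. A match is a description of the letters and not a bound site, and a missing match speaks only of these windows.

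In the serine synthesis pathway all 3 genes were lower at each passage than at the one before. Psat1, the transaminase that makes phosphoserine, measured 410.2 FPKM at P0, 267 at P1 and 213 at P2, from 11732, 5943 and 5885 reads. Against P0 this is 1.54-fold lower at P1 (interval 1.49 to 1.58) and 1.92-fold lower by P2 (interval 1.86 to 1.99). The log2(FPKM + 1) difference at P2 was -0.94, just short of the 2-fold call, and -1.07 with median-of-ratios scaling, which passes it. Psph, the phosphatase of the last step, measured 51.4, 40.9 and 33.5 FPKM and was 1.54-fold lower at P2 than at P0 (interval 1.402 to 1.69). Phgdh, the dehydrogenase that commits 3-phosphoglycerate to serine, measured 234, 207 and 193 FPKM and differed least, at 1.22-fold lower at P2 (interval 1.17 to 1.27). The pathway was thus not lowered evenly: within the libraries, the ratio of Psat1 to Phgdh reads at P2 was 0.632 of that at P0 (interval 0.600 to 0.666). Summed over the 3 genes, the level was 696, 515 and 439 FPKM.

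Psph needs a caution on read assignment. In GENCODE M21 its exons overlap on the opposite strand those of Cct6a, a chaperonin subunit gene, which measured 848, 700.2 and 697 FPKM and was at 0.823 of its P0 level at P2 (interval 0.805 to 0.840). The sources used here do not give the strand of the libraries, and how much of the Psph value comes from Cct6a was not tested.

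Among the mitochondrial folate enzymes, Shmt2, Mthfd2 and Mthfd1l act in sequence from serine to formate, and all 3 were lower at P1 and at P2 than at P0. Shmt2, which moves the serine carbon to tetrahydrofolate and leaves glycine, measured 109.1, 91.6 and 87.9 FPKM. It was 1.24-fold lower at P2 than at P0 (interval 1.19 to 1.29), and its P2 to P1 ratio, 0.959, had an interval of 0.918 to 1.001 that reaches 1. Mthfd2, the dehydrogenase and cyclohydrolase of the next step, which is high in embryonic and dividing cells, measured 119, 62.8 and 49.2 FPKM from 2389, 979 and 951 reads. Against P0 it was 1.90-fold lower at P1 (interval 1.76 to 2.05), and by P2 it had fallen 2.42-fold (interval 2.25 to 2.62). Among 9505 IDs with FPKM of at least 5 at P0 or P2, its difference at P2 was the 33rd from the lowest, that of Psat1 the 100th and that of Mthfd1l the 112th. Mthfd1l, the synthetase that releases formate, measured 50.7, 35.4 and 26.5 FPKM and was 1.91-fold lower at P2 than at P0 (interval 1.81 to 2.03). The steps of the path thus differed in size, smallest for Shmt2 and largest for Mthfd2 among the 3 at both passages against P0.

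Most of the distance from P0 was already present at P1 for these genes. On the log2 ratio scale, P1 held 72.4% of the P2 difference of Mthfd2, 80.5% of that of Shmt2, 65.6% of that of Psat1, 64.2% of that of Phgdh, 55.1% of that of Mthfd1l and 53.0% of that of Psph. These shares rest on the same P0 library in both terms. From P1 to P2, Mthfd1l was 1.34-fold lower (interval 1.25 to 1.43), Mthfd2 1.28-fold (interval 1.17 to 1.398), Psat1 1.25-fold (interval 1.21 to 1.299), Psph 1.22-fold (interval 1.10 to 1.36) and Phgdh 1.07-fold (interval 1.02 to 1.12).

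The remaining mitochondrial members were Gldc, which was above P0, and Aldh1l2, which was too low to compare. Gldc, the decarboxylase of the glycine cleavage system, measured 91.1, 119.9 and 101.6 FPKM, so that P1 was highest. It was at 1.32 times P0 at P1 (interval 1.28 to 1.36) and at 1.11 times at P2 (interval 1.08 to 1.15). Its log2 difference at P2, 0.16, was 0.02 under median-of-ratios scaling and 0.09 under quantile normalization. Aldh1l2, which oxidises formyl-tetrahydrofolate to carbon dioxide, measured 0.795, 0.441 and 0.580 FPKM from 44, 19 and 31 reads. Its P1 to P0 ratio was 0.555 (interval 0.306 to 0.971). Its P2 to P0 ratio, 0.730, had an interval of 0.446 to 1.18, so no difference was detectable between those libraries at this depth. Its exons overlap on the opposite strand those of D10Wsu102e, for which the deposited values imply a gene length of 123179 bases and 3402, 2785 and 3670 reads, and the effect of this overlap on the Aldh1l2 count was not tested.

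**Figure D2:**
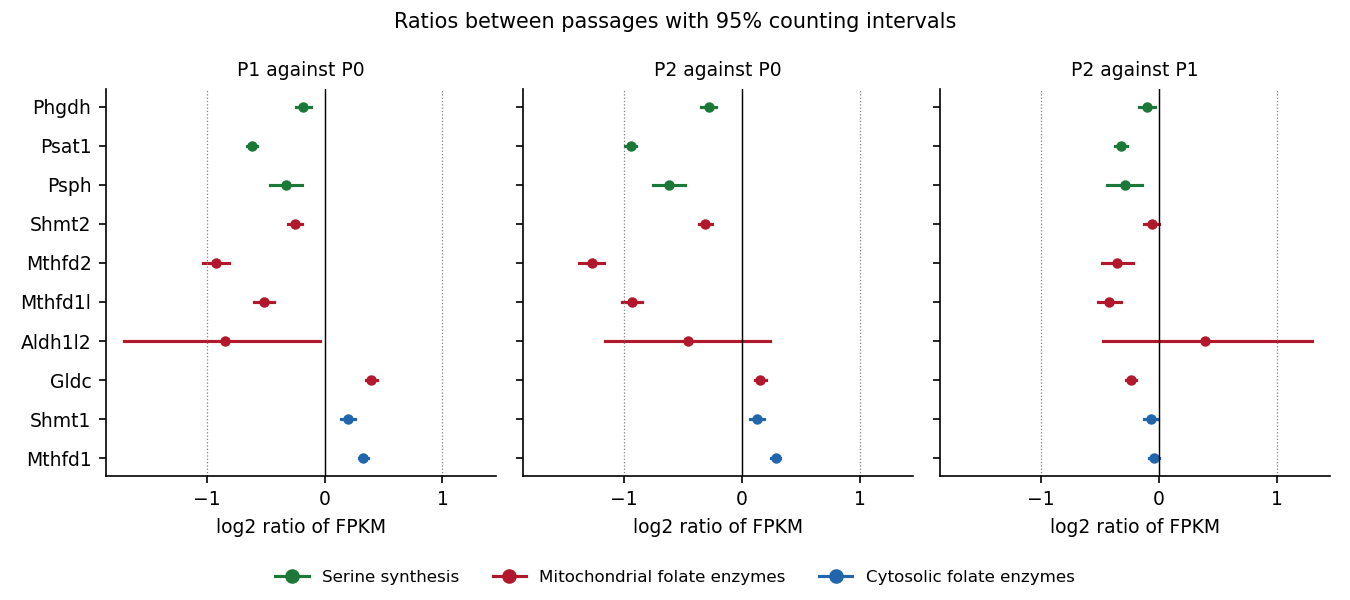
Log2 ratio of FPKM between passages for each enzyme (points) with exact 95% intervals on the recovered reads (lines); dotted lines mark 2-fold. Serine synthesis genes and Shmt2, Mthfd2 and Mthfd1l lie left of 0 against P0, while Gldc, Shmt1 and Mthfd1 lie right of it; the Aldh1l2 interval is wide because it rests on 19 to 44 reads.

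Both cytosolic members were above P0 at P1 and P2 as deposited, with Shmt1 at P2 turning under median-of-ratios scaling. Mthfd1, which carries the 3 activities that interconvert the folate carbon in the cytosol, measured 125, 157 and 153 FPKM, at 1.26 times P0 at P1 (interval 1.22 to 1.29). Shmt1, the cytosolic serine hydroxymethyltransferase, measured 184, 212 and 202 FPKM. It was at 1.15 times P0 at P1 (interval 1.10 to 1.197) and at 1.09 times at P2 (interval 1.05 to 1.14), and its log2 difference at P2, 0.13, was -0.0047 with median-of-ratios scaling. From P1 to P2 the ratios were 0.971 for Mthfd1 (interval 0.945 to 0.998) and 0.952 for Shmt1 (interval 0.913 to 0.992). The exons of Shmt1 overlap those of Smcr8 on the opposite strand, which measured 9.53, 7.58 and 9.08 FPKM. Those of Shmt2 overlap Ndufa4l2, at 0.314, 0.288 and 1.77 FPKM.

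The mitochondrial and cytosolic branches were compared next. The median difference of the 4 compared mitochondrial members was -0.38 at P1 and -0.61 at P2, and that of the 2 cytosolic members 0.26 and 0.21, so that the mitochondrial median lay 0.64 lower at P1 and 0.82 lower at P2. Of the 8 pairs of a compared mitochondrial with a cytosolic gene, the mitochondrial gene had the lower difference in 6 at P1, in 7 at P2 and in 7 between P1 and P2. The pairs use the same 4 mitochondrial and 2 cytosolic genes repeatedly and are not independent. The exceptions at P1 and P2 were pairs with Gldc, and between P1 and P2 the pair of Shmt2 with Shmt1. Summed levels of the 5 mitochondrial members were 371, 310.2 and 266 FPKM and those of the 2 cytosolic members 310, 369 and 354 FPKM, which took the mitochondrial share of their total from 54.5% to 45.7% and 42.9%. Without Gldc this share was 47.4%, 34.02% and 31.7%. These shares add levels of different genes and depend on the gene lengths used: per kilobase of the longest coding transcript they were 59.3%, 52.3% and 49.7%, and 50.1%, 37.7% and 35.7% without Gldc.

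Ratios of 2 genes within a library do not depend on how libraries are scaled to each other. The ratio of Shmt2 to Shmt1 reads, the enzymes of the same reaction in the 2 compartments, was 1.25 at P0, 0.916 at P1 and 0.923 at P2. At P2 it was 0.738 of its P0 value (interval 0.697 to 0.780), and it did not differ detectably between P1 and P2, at 1.01 (interval 0.949 to 1.07). The ratio of Mthfd2 to Mthfd1 was 0.420 of its P0 value at P1 (interval 0.387 to 0.455) and 0.338 at P2 (interval 0.312 to 0.367). That of Mthfd1l to Mthfd1 was 0.557 (interval 0.522 to 0.594) and 0.429 (interval 0.402 to 0.457). These pairs went on separating between P1 and P2, by 0.806 for Mthfd2 (interval 0.734 to 0.886) and 0.770 for Mthfd1l (interval 0.716 to 0.827). The ratio of Gldc to Shmt1 was 1.15 of its P0 value at P1 (interval 1.09 to 1.21) and 1.02 at P2 (interval 0.970 to 1.07), with a P2 to P1 ratio of 0.890 (interval 0.845 to 0.937). That of Gldc to Mthfd1 was 1.05 at P1 (interval 1.005 to 1.09) and 0.914 at P2 (interval 0.878 to 0.953).

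**Figure D3:**
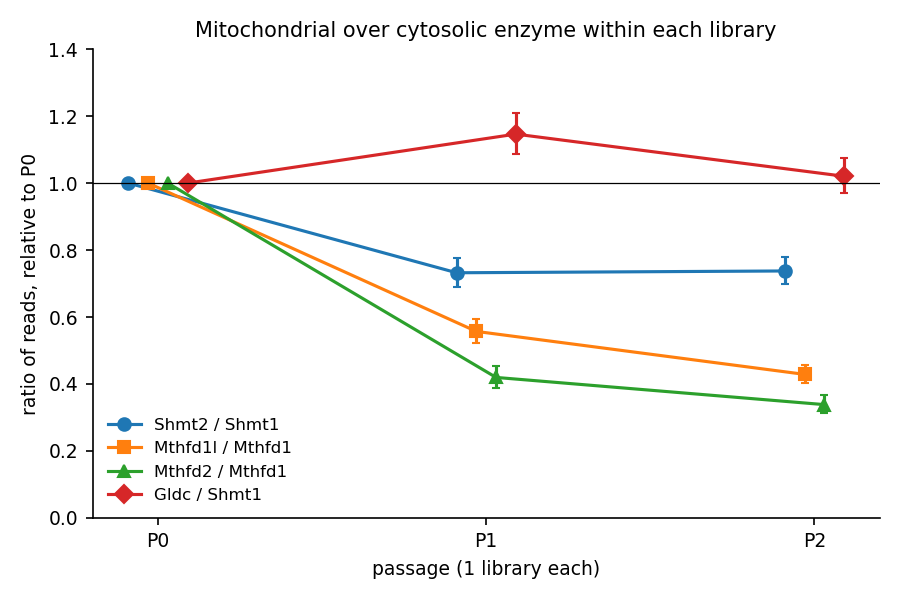
Ratio of reads of a mitochondrial to a cytosolic enzyme within each library, relative to P0 (set to 1), with exact conditional 95% intervals from reads. At P2 the ratio is 0.738 for Shmt2 over Shmt1, 0.429 for Mthfd1l over Mthfd1 and 0.338 for Mthfd2 over Mthfd1, while Gldc over Shmt1 is at 1.15 at P1 and 1.02 at P2.

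The lower levels did not extend to mitochondrial folate and glycine genes at large. In a list of 13 such genes, which adds 8 to the members, 12 were compared, 1 fell by P2 (Mthfd2) and 0 rose, and the median was 0.17. All 8 added genes had values above P0 at P2 as deposited, and 6 of 8 with median-of-ratios scaling and 5 of 8 with quantile normalization. Over all compared IDs, 1.16% fell and 6.72% rose by P2, and 42.3% had values below P0. The P2 to P0 interval included 1 for Dld (0.957 to 1.07), Mtfmt (0.908 to 1.19), Mthfd2l (0.870 to 1.77) and Sardh (0.987 to 2.93). It lay above 1 for Amt, Gcsh, Slc25a32 and Dmgdh. Sardh and Dmgdh were low, near FPKM 1. Among the added genes, the other glycine cleavage genes Amt, Gcsh and Dld measured 75.3, 81.2 and 99.9 FPKM, 174, 189.6 and 212 FPKM and 46.2, 42.4 and 46.8 FPKM. Mthfd2l, the paralog of Mthfd2 more common in adult tissue, was low, at 1.38, 1.02 and 1.71 FPKM, and the folate carrier of the inner membrane, Slc25a32, measured 6.55, 6.58 and 7.85 FPKM. Taken over the extended lists, the mitochondrial median lay 0.045 above the cytosolic one at P2, in place of 0.82 below it for the members. For the cytosolic and nuclear list the P2 median was 0.13, and 0 of 11 passed 2-fold, beside 7.88% of all compared IDs. In it Tyms, thymidylate synthase, measured 56.4, 64.7 and 63.2 FPKM, and methionine synthase, Mtr, measured 19.0, 18.7 and 17.5 FPKM.

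Among carriers of serine and glycine, 5 of the 7 compared genes (of 8 listed) had values below P0 at P2 and 2 fell. Over all compared IDs, 42.3% had values below P0 at P2 and 1.16% fell. The median difference of the 7 carriers was -0.28 for P1 and -0.81 for P2. Slc1a4, a neutral amino acid transporter that takes serine, fell from 9.80 to 5.44 and 4.32 FPKM, and the glycine transporter gene Slc6a9 from 4.001 to 2.04 and 1.12 FPKM. Slc1a5 and Slc38a1, which carry glutamine and other neutral amino acids, were 1.76-fold (interval 1.66 to 1.87) and 1.84-fold (interval 1.75 to 1.93) lower at P2. Sfxn1, which brings serine into the mitochondrion, measured 39.0, 32.1 and 27.6 FPKM, while Slc38a2 was at 1.11 times P0 at P2 (interval 1.08 to 1.15) and Sfxn3 at 1.49 times (interval 1.21 to 1.85).

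The threonine route measured 301, 328 and 255 FPKM for Tdh, threonine dehydrogenase, and 41.2, 38.6 and 33.4 FPKM for Gcat, with 0 of 2 past 2-fold. For purine synthesis, which uses cytosolic formyl-folate, the P2 median was 0.03 and 0 of 13 genes passed 2-fold, beside 7.88% of all compared IDs. Gart and Atic, the 2 enzymes that take the folate carbon, measured 239, 238 and 243 FPKM and 175, 164 and 157 FPKM. The folate uptake and retention list was centred at 0.01 at P2, and 0 of its 5 compared genes passed 2-fold. In that list the folate receptor gene Folr1 measured 44.5, 41.6 and 73.1 FPKM, the polyglutamate synthase gene Fpgs 98.5, 120.3 and 130.0 and the hydrolase gene Ggh 3.42, 2.45 and 1.999.

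**Figure D4:**
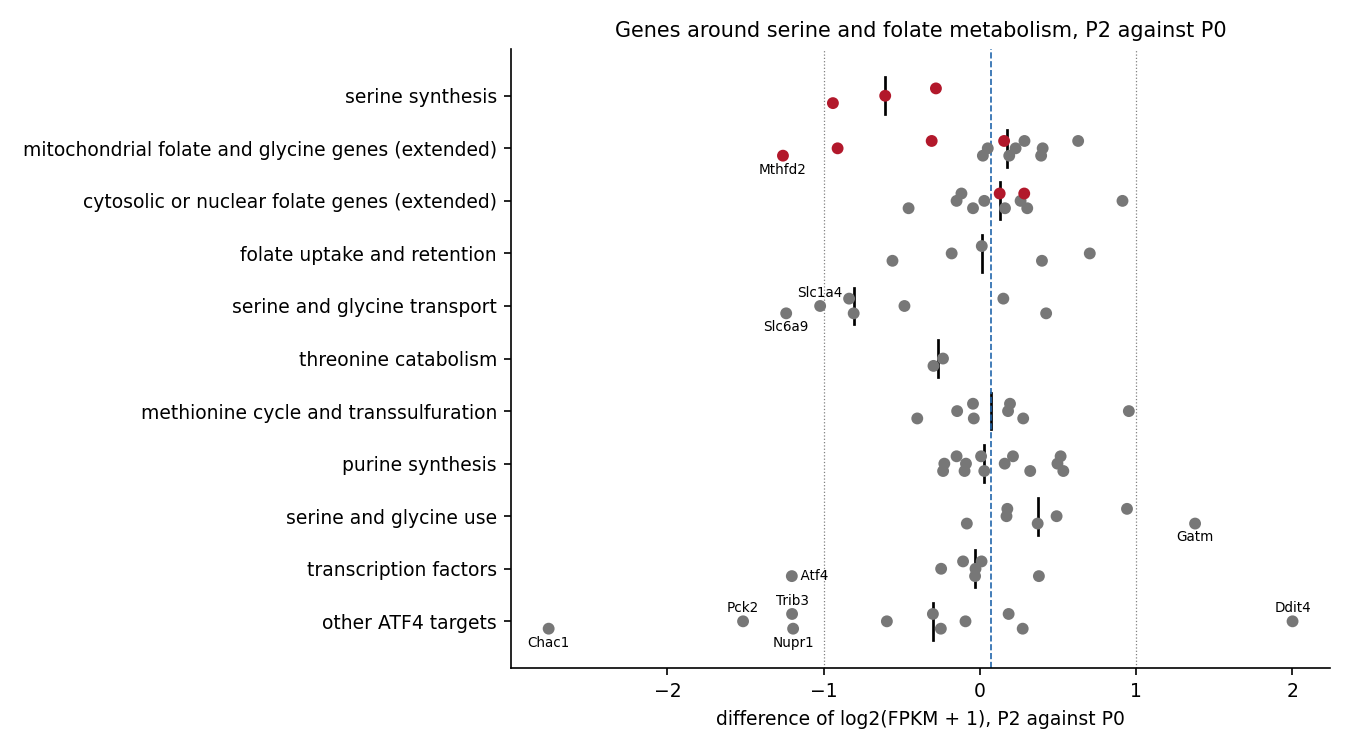
Difference of log2(FPKM + 1) between P2 and P0 for each compared gene (points; members in red) by list, with list medians (black bars), the median of all compared IDs (dashed line, 0.07) and 2-fold (dotted lines; genes past it are named). The serine synthesis and the serine and glycine transport lists lie to the left with medians of -0.61 and -0.81, and the purine synthesis list is centred at 0.03.

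Of the 7 transcription factors reported to control these enzymes, 1 fell by P2 and 0 rose, beside 1.16% and 6.72% of all compared IDs. Atf4, an activator of serine synthesis genes and Mthfd2, fell from 141 to 82.9 and 60.5 FPKM. Myc measured 53.2, 48.3 and 44.6 FPKM and Mycn 131, 191 and 170.3 FPKM, while Nfe2l2 and Trp53 differed by -0.03 and 0.01 at P2. Of 11 compared genes in the list of other ATF4 targets, 4 fell by P2 and 1 rose, with a median of -0.30. Over all compared IDs, 1.16% fell and 6.72% rose. The targets that fell were Chac1, the pseudokinase gene Trib3, Pck2, the mitochondrial phosphoenolpyruvate carboxykinase gene, and the stress gene Nupr1. Ddit4, also a target of other stress pathways, rose from 37.3 to 152 FPKM. Asns measured 312, 211 and 206 FPKM. The lists were drawn with earlier results of these data known, so their counts are not independent evidence of a direction. All these values are RNA levels, and whether Atf4 had a part in the differences of the members was not tested.

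The genes whose pair of log2 differences, P1 and P2 against P0, lay nearest to that of a member were looked up over the 3 libraries among 8288 named genes with FPKM of at least 5 in each. For Mthfd2 these were Herpud1, a gene of endoplasmic reticulum protein disposal, Trib3 and Aldh18a1, an enzyme of proline synthesis, at Euclidean distances of 0.104, 0.105 and 0.107. Aldh18a1 measured 82.9, 45.3 and 36.3 FPKM. For Psat1 they were Msi1, Olig2 and Gbx2, at 0.0055, 0.027 and 0.029, and for Mthfd1l they were Ptch1, Armcx1 and Oxct1, at 0.013, 0.022 and 0.033. For Psph they were Pbx3, Top1 and Zfp277, for Phgdh Fam3c, Ctdnep1 and Hnrnpa1 and for Shmt2 Pitpnc1, Hspd1 and Rbmxl1. For Gldc they were Clasrp, Pced1a and Rsrp1, for Shmt1 Smn1, Cox7b and Tcf7 and for Mthfd1 Notch1, Sfrp2 and Kif1c, at most 0.016 away. Mthfd2 thus had no neighbour as near as those of the other members, in a range of differences that few genes reach. With 3 libraries such nearness describes 2 numbers per gene only.

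The order of levels between members depends on the gene length used. In deposited FPKM at P0 the order from the top was Psat1, Phgdh, Shmt1, Mthfd1, Mthfd2, Shmt2, Gldc, Psph, Mthfd1l and Aldh1l2. The lengths implied by the values were 38.1% of the longest coding transcript in M21 for Shmt1, 41.4% for Mthfd2 and 47.9% for Phgdh, but 102.6% for Mthfd1 and 100.7% for Shmt2. Per kilobase of the longest coding transcript, Psat1 was still highest at P0, at 193, followed by Mthfd1 at 129, Phgdh at 112 and Shmt2 at 110, with Shmt1 at 70.3 and Mthfd2 at 49.4. By P2 Mthfd1 led on that scale, at 157, followed by Gldc at 101.3, Psat1 at 100.4 and Phgdh at 92.4. Neighbours such as these last 2 differ by less than a change of gene model can move them, so levels of different genes are not ranked further.

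The library totals inferred from the FPKM values were 23213528, 18059914 and 22405670 reads. Pold3, the targeted gene, measured 49.2, 13.03 and 11.6 FPKM, which is 3.78-fold lower at P1 (interval 3.32 to 4.31) and 4.23-fold at P2 (interval 3.74 to 4.79) compared with P0. All 6 embryonic stem cell markers were above FPKM 1 in every library, with sums of 1694, 1533 and 1513 FPKM, with Pou5f1 the highest of the 6. Single markers differed in both directions: Esrrb measured 221, 127 and 118 FPKM and Nanog 179, 165 and 239.6 FPKM. Of 9 fibroblast markers, listed because feeder cells may be present, 6 were at FPKM 1 or more in each library, with sums of 295, 262 and 252 FPKM made mostly of Fn1 and Vim, and Postn was at 0 in all 3. Other markers of that list were above P0, among them Col1a1 at 1.98, 5.63 and 7.09 FPKM and S100a6 at 13.5, 52.8 and 59.0 FPKM. Trophoblast markers summed to 44.1, 67.8 and 96.1 FPKM, made mostly of Tfap2c and Krt18, with 2, 6 and 6 of 6 at FPKM 1 or more. Liver and endoderm markers summed to 65.8, 75.3 and 74.6 FPKM, made mostly of Alb at 59.0, 67.6 and 65.9 FPKM, while Afp, Sox17 and Foxa2 were under 1. The part of these cell types in the results was not tested. In bulk RNA, fewer cells of a type and less RNA per cell cannot be told apart.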

How the data were processed

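Expression was measured by RNA sequencing in 1 library each of passages P0, P1 and P2, grouped by the passage in the labels. The authors deposited FPKM values per gene ID. Per the submitters' processing notes, Bowtie2 2.0.6 and TopHat2 2.0.9 were used with mm9. For the counting program, annotation and strand no statement is given in the sources used here. Of 50043 IDs, 49326 matched a symbol in GENCODE M21, whose build differs from mm9, so gene coordinates are given only for sequences from RefSeq (GRCm38.p6).

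In FPKM a read count is scaled by the length of its gene and the size of its library. Totals were found from the commonest ratios between libraries and from genes with 1 transcript of known length. For 26291 of 26291 IDs above 0 whole reads and a whole length resulted (relative tolerance 1e-09), and with changed totals for 0 of 500. A common factor of reads and length was set by the M21 mean transcript length. For 82.2% of these IDs the resulting length lay within 1 base of that mean. For the other IDs the factor, and so the width of their intervals, is less certain. Recovered reads summed to 100.53, 100.51 and 100.52% of the totals, and why this exceeds the totals was not tested. Ratios carry exact conditional 95% intervals (Clopper-Pearson; for ratios of ratios the conditional odds ratio). They reflect counting error alone, as reads without identifiers of molecules need not be independent. A count test was not run, since each passage has 1 library.

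Differences are of log2(FPKM + 1), which understates low genes, over IDs that reach FPKM 1 in either library. Steps were tested on simulated data. Named genes are the 10 members, Pold3, the genes of each list past 2-fold in any comparison or with the 3 largest differences at P2, a fixed set of pathway genes and the 3 most alike genes per member. Not all of these are printed, and some list genes are not reported here. Other list genes named in the text (such as Dld, Mtfmt, Sardh, Slc25a32, Slc38a2, Sfxn1, Sfxn3, Gart, Atic and Trp53) and the overlapping genes were chosen after their values were seen. Members and lists were chosen with earlier results of these data known. The motifs other than TGATGNAA, the pairs of genes set in ratio beyond the paralogs, the longest-transcript scale and the count of pairs without Aldh1l2 were chosen after seeing the data. The alternatives tried were median-of-ratios scaling (also over named genes without short RNA genes), rescaling to 1000000, quantile normalization, a pseudocount of 0.1, no floor or one at FPKM 5, extended lists, means and leaving out Gldc. The work was done in Python 3.11.15 with pandas 2.3.3, scipy 1.17.1, numpy 2.4.6 and, for figures, matplotlib 3.10.9.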

Additional observations from a re-analysis of the deposited data

How the results depend on the processing

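No paired analysis was possible because each passage has 1 library. Median-of-ratios scaling moved the median of all IDs at P2 from 0.07 to -0.05, and all differences against P0 with it. The number of members past 2-fold then became 1 at P1 (Mthfd2, -1.03) and 3 at P2 (Mthfd2, -1.39; Psat1, -1.07; Mthfd1l, -1.04), in place of 0 and 1, also over named genes only (1 and 3). Under the other alternatives run for these counts they were unchanged. The gap between the mitochondrial and cytosolic medians, -0.64 at P1, -0.82 at P2 and -0.24 between P1 and P2, became -0.78 and -0.60 at P1 and P2 under quantile normalization, where Aldh1l2 passed the floor at 1.01 FPKM at P0. Without Gldc it was -0.77 and -1.12. With the extended lists it was -0.14 at P1, and turned to 0.045 at P2 and 0.091 between P1 and P2. Under 5 scaling and pseudocount alternatives, the sign of a member's difference changed for Shmt1 at P2 under both median-of-ratios scalings, at -0.0047 and -0.0034. Depth limits Aldh1l2, with 19 to 44 reads.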

Other observations

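Some genes that use serine or glycine outside the folate path had higher values at the later passages. Gatm, which joins glycine to arginine in creatine synthesis, rose from 1.64 to 5.53 and 5.87 FPKM and was at 3.57 times P0 at P2 (interval 2.57 to 5.05). Of the 7 compared genes that use serine or glycine, 1 rose by P2 and 0 fell, with a median of 0.37. Over all compared IDs, 6.72% rose and 1.16% fell by P2, with a median of 0.07. Cbs, the transsulfuration enzyme that joins serine to homocysteine, rose from 28.99 to 65.5 FPKM at P1 and was at 57.1 FPKM at P2, a difference of 0.95 from P0. The other enzyme of that route, Cth, measured 58.0, 64.2 and 56.2 FPKM. Cbs and Cth belong to the methionine cycle and transsulfuration list, which did not share the rise of Cbs. Its P2 median was 0.07, with 4 of 8 compared genes above P0 and 4 below. In that list 1 of 8 passed 2-fold at P1 and 0 of 8 at P2, beside 4.67% and 7.88% of all compared IDs. Aldh1l1, the cytosolic counterpart of Aldh1l2, measured 1.05, 2.86 and 2.86 FPKM, from 43, 91 and 113 reads, so that its P2 to P0 ratio was 2.72 (interval 1.90 to 3.96), although its log2(FPKM + 1) difference, 0.91, did not reach the 2-fold call.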
